A study of Mus musculus with 5 samples.

Results

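The genes described here carry symbols used for subunits of the enzymes of oxidative phosphorylation. They were measured by RNA-Seq in the mouse retina after form deprivation. They were selected by symbol alone, 94 of the 33636 genes in the count table. The mitochondrial genome encodes 13 of them (mt-Nd, mt-Co, mt-Atp and mt-Cytb), and 81 lie in the nucleus. The nuclear symbols are Nduf, Uqcr, Cox4 to Cox8 and Atp5, without Ndufaf assembly factors and symbols marked as pseudogenes. They also take in Atp5if1 and Cox7a2l, counted with complexes V and IV by symbol alone, and Cox6c2, annotated as a processed pseudogene. The question was whether the mitochondrially encoded and the nuclear genes differed between form-deprived and control eyes, and whether they did so alike.

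The respiratory chain passes electrons from NADH through complex I, complex III and complex IV (cytochrome c oxidase) to oxygen, and pumps protons across the inner mitochondrial membrane, while ATP synthase (complex V) uses the proton gradient to make ATP. Each of these complexes combines subunits read from the mitochondrial genome with subunits imported from the cytosol, so both genomes must be expressed for any of them to be built. The retina has a high demand for ATP, much of it in the photoreceptors, whose inner segments are packed with mitochondria.

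The retinas came from wild-type male C57BL/6J mice, a common inbred strain, aged 42 postnatal days (P42). A diffuser goggle had covered the right eye for 2 weeks from P28, which blurs the retinal image and is a standard way to induce myopia. The 2 FDM libraries are from such form-deprived eyes, and the 3 Control libraries are from the uncovered left eyes, so each control eye belonged to an animal that wore a goggle. The column of the count table and the supplement number the second FDM library 3, while its sample label numbers it 2. Mice are numbered here as in the count table and the supplement. On that numbering FDM 1 and Control 1 are mouse 1, FDM 3 and Control 3 are mouse 3, and Control 2 has no FDM partner. The sample label would instead pair FDM 3 with Control 2, so the pairing of mouse 3 is not settled.

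Library totals ran from 40599047 to 56534931 estimated counts, at which 3 counts equal 0.0531 to 0.0739 CPM (counts scaled to a common library size), a floor that covers counting error only. Rod markers were at 52639 to 65977 CPM in sum, with 0 of 8 markers absent from any library. Some libraries stood apart in markers of other tissues. The 12 lens markers in the table summed to 2269 CPM in FDM 3 against 4.36 to 24.5 CPM in the others. The 11 skeletal muscle markers summed to 96.2 CPM in Control 3 against 10.9 to 12.4 CPM, and the 10 markers of the retinal pigment epithelium (RPE) to 190 CPM in Control 3 and 117 CPM in Control 2 against 37.5 to 41.5 CPM. In whole retina, fewer cells of a type and less RNA per cell cannot be told apart.

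Several members share their sequence with another gene, which limits how their counts can be read. A stretch of chromosome 1 holds copies of mitochondrial genes, annotated in GRCm38 as unprocessed pseudogenes on the minus strand, and 5 of them carried counts. Gm28661 (chr1:24614885-24615565) is a copy of mt-Co2 (mitochondrial genome, 7013 to 7696, plus strand), identical over 681 of the 684 bases of the gene. The ends of both transcripts are shown because they differ only in the capital letters, the stop codon that the annotated copy lacks. Positions are counted from 1 at the 5′ end of each transcript.
mt-Co2, bases 625 to 684: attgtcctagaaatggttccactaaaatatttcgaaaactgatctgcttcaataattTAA
Gm28661, bases 625 to 681: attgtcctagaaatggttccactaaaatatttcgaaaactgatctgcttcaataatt

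Gm29216 (chr1:24615706-24616197) matches the last 492 bases of mt-Co1 (mitochondrial genome, 5328 to 6872) with 6 mismatches, so that reads over its first bases can tell it from the mitochondrial gene. Counted in mt-Co1, the mismatches are T1056A, C1057T, A1059G, A1060G, C1062A and A1066T, given in capitals in both sequences.
mt-Co1, bases 1054 to 1113: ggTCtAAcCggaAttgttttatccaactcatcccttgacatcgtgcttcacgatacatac
Gm29216, bases 1 to 60: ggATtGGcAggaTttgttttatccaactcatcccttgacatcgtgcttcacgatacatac

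The other copies were Gm28437, identical to 783 of the 784 bases of mt-Co3, Gm10925, identical to 678 of the 681 bases of mt-Atp6, and Gm28438, which matches 345 of the 348 bases of mt-Nd3 with the single mismatch T3C. Among the nuclear members, Atp5mc2, Atp5mg, Cox7c and Ndufb4 each share over 50% of the 31-base words of a processed pseudogene with at least 100 counts in a library. For Atp5mc2 and Ndufb4 the pseudogene held most of the summed counts, 76.2% to 83.7% in Gm10175 and 71.1% to 75.1% in Ndufb4c, so the level of these members is uncertain.

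The mitochondrially encoded genes were far more abundant than the nuclear ones. Per kilobase of transcript, their median level over the 5 libraries was 3974 CPM per kb, 36.8 times the nuclear median of 108 CPM per kb among the 77 nuclear members that passed the count filter. The lowest mitochondrially encoded gene, mt-Nd5 (a proton-pumping subunit of complex I, 1533 CPM per kb), was 2.65 times above the highest nuclear one, Atp5f1b (the catalytic beta subunit of ATP synthase, 578 CPM per kb). Within the mitochondrial set, the 7 complex I genes had a median of 2393 CPM per kb, below mt-Cytb of complex III (5940), the 3 genes of complex IV (3974 to 7064) and both genes of complex V (6496 and 6981), all in CPM per kb. Complex I also had the lowest nuclear median, with 80.4 CPM per kb for complex I against 109, 116 and 137 CPM per kb for complexes III, IV and V. Levels of single nuclear genes overlapped between the complexes. They ran from 15.1 (Ndufb4) to 397 CPM per kb (Ndufa4) in complex I. In complex V they ran from 22.1 (Atp5mc2) to 578 CPM per kb (Atp5f1b). Pseudogenes held most of the summed counts of Ndufb4 and Atp5mc2, so both low ends are uncertain. Ndufa4 is counted with complex I by its symbol, though it is now placed in complex IV. All these levels leave out the counts of copies, which held 25.7% to 43.8% of the sum for mt-Co3 and 13.4% to 55.2% for mt-Co2. The mitochondrial median and the lowest value of complex IV are both mt-Co3 alone, so they would be higher with its copy.

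**Figure D1:**
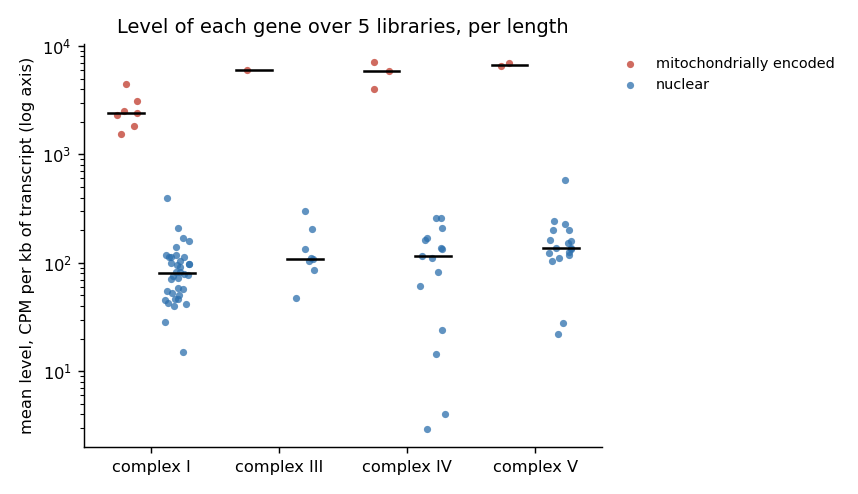
Mean level of each gene over the 5 libraries in CPM per kb of transcript on a log axis, for the members of each complex, with mitochondrially encoded genes in red and the nuclear genes that passed the count filter in blue. Black bars are medians, and counts of copies are left out. Every mitochondrially encoded gene lies above every nuclear gene.

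The 13 mitochondrially encoded genes together took 4.45% and 4.82% of all counts in FDM 1 and FDM 3, and 4.82%, 4.66% and 4.97% in Control 1, Control 2 and Control 3. The means were 4.64% ± 0.262 (SD, n = 2) and 4.82% ± 0.158 (SD, n = 3), and the groups overlapped. The nuclear members took 0.710% and 0.739% of counts in FDM and 0.732%, 0.710% and 0.811% in control eyes. With the 5 chromosome 1 copies added, the mitochondrial share was 4.92% and 5.15% in FDM against 5.10%, 5.24% and 5.28%, still overlapping. In the deposited normalized counts the 13 genes took 4.53% and 4.92% in FDM against 4.71%, 4.50% and 5.08% in control eyes, and the difference of the means was -0.038 percentage points in place of -0.177. With 2 against 3 libraries, an exact two-sided permutation test cannot give a p below 0.2, so no test was run on the shares.

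In edgeR's quasi-likelihood test, a gene was called at an unadjusted p under 0.05. None (0) of the 13 mitochondrially encoded genes and 1 of the 77 nuclear genes, Cox8b, passed it, against 1.61% of all 17432 genes tested and 1.16% called as lower in FDM eyes. After Benjamini-Hochberg adjustment over all genes, 0 members and 0 genes overall passed in edgeR, against 281 genes without adjustment. The smallest unadjusted p among the mitochondrially encoded genes was 0.414 in edgeR. DESeq2 also called 0 of 13 and 1 of 77, and 3 genes, none of them a member, passed its adjustment.

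Most fitted differences of the mitochondrially encoded genes were small. Their median log2 fold change (FDM against control) was -0.064, but it was 0.002 when limma was run on the deposited normalized counts, where 7 of the 13 genes were above 0. Without FDM 3, the library highest in lens markers, the median was -0.078 in edgeR, without Control 3 it was -0.039, and without FDM 1 it was -0.030. For comparison, the median over all genes tested was -0.013. In edgeR 10 of the 13 were below 0, against 55.6% of all genes. The standard errors of the 13 ran from 0.08 to 0.34.

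Among the complex I subunits, mt-Nd1 had 4127 and 4220 CPM in FDM 1 and FDM 3, and 4462, 4277 and 4417 CPM in Control 1 to Control 3. Both FDM libraries lay below the controls, yet the difference did not pass the test (log2 fold change -0.07, 95% interval -0.27 to 0.12). mt-Nd2 overlapped between the groups, with 2503 and 2445 CPM in FDM and 2663, 2463 and 2348 CPM in control eyes. The log2 fold changes of mt-Nd3 and mt-Nd4 were -0.06 and -0.01.

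mt-Nd4l, which overlaps mt-Nd4 by 7 bases on the same strand, was at 0.04 on the log2 scale, and mt-Nd6 at 0.01. mt-Nd6 is the only member read from the opposite strand of the mitochondrial genome, and it overlaps mt-Nd5 by 14 bases. The library kit does not mark strand, so reads over those bases cannot be assigned. Any other RNA from the strand opposite to mt-Nd6 would also be counted as mt-Nd6, so its level and difference are uncertain. Counts of mt-Nd6 were 42.9% to 50.9% of those of mt-Nd5. mt-Nd5 had 2896 and 2855 CPM in FDM and 2726, 3068 and 2432 CPM in control eyes, with a log2 fold change of 0.07 (interval -0.20 to 0.33).

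For complex III, mt-Cytb, the cytochrome b that passes electrons between quinones, had 6504 and 6762 CPM in FDM and 7086, 6728 and 6898 CPM in control eyes. Its groups overlapped, and its log2 fold change was -0.06 (interval -0.26 to 0.14). For complex V, mt-Atp6, the channel subunit through which protons return, had 4585 and 4670 CPM in FDM 1 and FDM 3 against 4844, 4848 and 4823 CPM. Its groups did not overlap, with 4627 ± 60 (SD, n = 2) and 4838 ± 13.1 (SD, n = 3), and its log2 fold change was -0.06 (SE 0.08, unadjusted p = 0.452 and adjusted p = 1 from edgeR). The edgeR fit moderates the spread of each gene towards that of all genes of like abundance, so its standard error is wider than the spread of these 5 values.

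mt-Atp8, which overlaps mt-Atp6 by 43 bases on the same messenger RNA, kept close to it, at 27.4% to 28.2% of its counts in every library. Counted without copies, mt-Nd1, mt-Atp6 and mt-Atp8 were the 3 of 13 mitochondrially encoded genes with both FDM libraries below all controls. Of all genes, 6.67% showed this. None (0) of the 13 lay above all controls, which 3.97% of all genes did. Once summed with copies, as given below, mt-Co2, mt-Co3 and mt-Nd3 also had both FDM libraries below all controls.

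The core subunits of cytochrome c oxidase gave the widest spread of the mitochondrial set. mt-Co1, the catalytic subunit with the heme and copper centers, was the most abundant member, at 10335 and 10835 CPM in FDM and 10328, 10967 and 12101 CPM in control eyes. mt-Co2, which takes electrons from cytochrome c, had 2434 CPM in FDM 1 but 4764 CPM in FDM 3, and 5060, 2762 and 5031 CPM in Control 1 to Control 3. FDM 1 and Control 2 were thus low together, although they came from different mice and different groups. Its log2 fold change was -0.25 (SE 0.34, interval -1.05 to 0.54), and it went to 0.15 without FDM 1 and to -0.82 without FDM 3.

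Counts of the identical copy Gm28661 were high in the same libraries in which mt-Co2 was low. Gm28661 had 2995 CPM in FDM 1 and 2945 CPM in Control 2, but 895, 802 and 781 CPM in FDM 3, Control 1 and Control 3. It held 55.2% and 51.6% of the summed counts of both genes in FDM 1 and Control 2, against 13.4% to 15.8% elsewhere. Summed, a step chosen after these values were seen, the pair had 5428 and 5659 CPM in FDM and 5862, 5707 and 5812 CPM in control eyes, without overlap. The coefficient of variation among controls fell from 30.8% for mt-Co2 alone to 1.37% for the sum, and the log2 fold change became -0.06 (SE 0.08, unadjusted p = 0.428 from edgeR).

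mt-Co3 shared its counts with Gm28437, with another order of libraries. Alone it had 3031 and 2931 CPM in FDM and 3253, 2620 and 3742 CPM in control eyes, and the copy held 43.8% of the sum in Control 2, 33.7% in FDM 3 and 25.7% to 27.9% in the other libraries, FDM 1 among them. Summed with the copy, its levels were 4206 and 4422 CPM against 4503, 4658 and 5038 CPM, so that the groups no longer overlapped (log2 fold change -0.13, SE 0.09, unadjusted p = 0.163 from edgeR). For mt-Atp6 the copy Gm10925 was at 0 in FDM 1 and held 0.713% to 3.32% of the sum elsewhere. The copy of mt-Nd3, Gm28438, was also at 0 in FDM 1 and held 3.81% to 9.89% elsewhere. Summed with it, mt-Nd3 had 831 and 800 CPM in FDM against 878, 871 and 900 CPM in control eyes. The groups did not overlap (log2 fold change -0.11, SE 0.08, unadjusted p = 0.184 from edgeR).

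**Figure D2:**
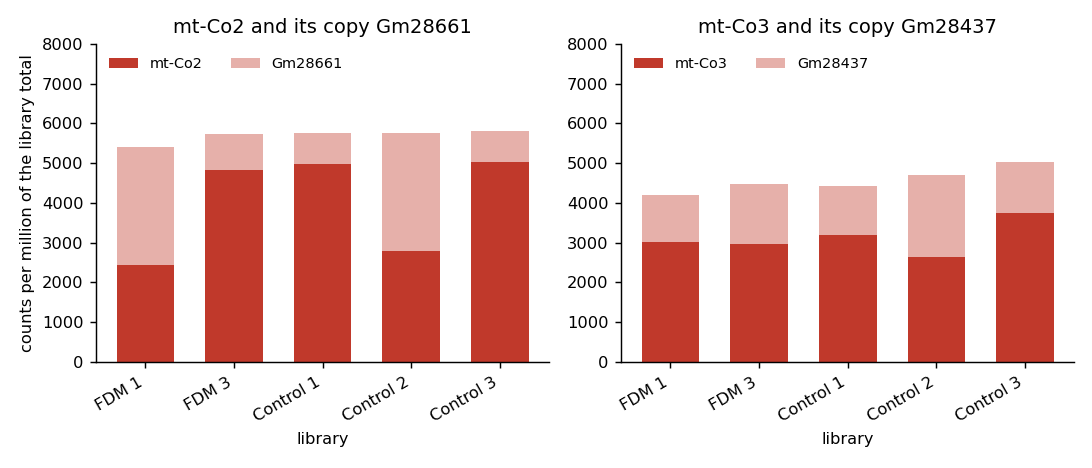
Stacked CPM, taken over the library total, for mt-Co2 with its copy Gm28661 (left) and mt-Co3 with its copy Gm28437 (right) in each library. Dark bars are the mitochondrial gene and light bars the chromosome 1 copy; the mt-Co2 part is low in FDM 1 and Control 2, while the height of the whole bar differs little between libraries.

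Of the copies, Gm29216 alone was called as lower in FDM eyes, with 487 and 601 CPM in FDM and 694, 654 and 800 CPM in control eyes (log2 fold change -0.40, SE 0.13, unadjusted p = 0.0176 and adjusted p = 1 from edgeR). With the mouse as a block, a fit described with the nuclear genes, its adjusted p was 0.00636 in edgeR. That fit pairs FDM 3 with Control 3, which is not settled. In the same fit Gm28661 was called as higher (log2 fold change 1.05, SE 0.30, unadjusted p = 0.00715 and adjusted p = 0.508 from edgeR). Gm29216 can be told from mt-Co1 only over the mismatches printed above, and 97.2% of its 31-base words also occur in mt-Co1. It held 4.50% to 6.30% of the counts summed with mt-Co1, so the sum moved little (log2 fold change -0.09, SE 0.09). Whether its counts come from chromosome 1 or from the mitochondrial transcript was not tested.

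The nuclear members were fitted slightly lower in FDM eyes almost throughout, by amounts that did not pass the test for any gene but Cox8b. Of the 77 members tested, 74 had a log2 fold change below 0, against 55.6% of all genes, with a median of -0.065. All 8 of complex III, all 15 of complex IV and all 18 of complex V were below 0, and 33 of 36 of complex I. The medians were -0.050, -0.073, -0.076 and -0.066 for complexes I, III, IV and V. Without Cox8b the values ran from -0.21 to 0.02, with a median standard error of 0.10. The difference between the mitochondrial and the nuclear medians was near 0, at 0.001 on the log2 scale, and it ran from -0.041 to 0.073 over the alternatives, against a spread of 0.106 (SD) among the 3 controls.

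Control 3 stood apart for the nuclear members. It was the highest of the 5 libraries for 74 of the 77 nuclear members, but for 3 of the 13 mitochondrially encoded ones, against 20.2% of all genes. The median nuclear member lay 0.142 above its own mean over libraries in Control 3 on the log2 scale, 0.003 above it in Control 1, and at -0.068 in Control 2. Its values in FDM 1 and FDM 3 were -0.067 and -0.015. When Control 3 was left out, the nuclear median was 0.002 and 40 of 77 members were above 0. When FDM 3 was left out, the median was -0.094.

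As a set, the mitochondrially encoded genes did not show this pattern of libraries. Their medians were -0.029, -0.008, 0.045, 0.010 and 0.021 in order from FDM 1 to Control 3. The 3 genes of complex IV, without their copies, had a median of 0.274 in Control 3 and -0.240 in Control 2. In Control 3 the median was -0.080 for the 7 genes of complex I, 0.022 for mt-Cytb and 0.010 for complex V. Since members of one library move together, their count is no count of independent observations.

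Other genes of the same libraries moved with the nuclear members. The 83 ribosomal protein genes, whose products make up the cytosolic ribosome, had a median deviation of 0.175 in Control 3 and -0.096 in FDM 1, and Control 3 was the highest library for 92.8% of them. Of the 77 nuclear members, 61 have transcripts under 1 kb. Among the 2626 other tested genes with transcripts under 1 kb, Control 3 was highest for 32.8%, against 6.97% of those of 4 kb and over. The muscle and RPE markers given above were also highest in Control 3. The part of any of these in the nuclear values was not tested.

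**Figure D3:**
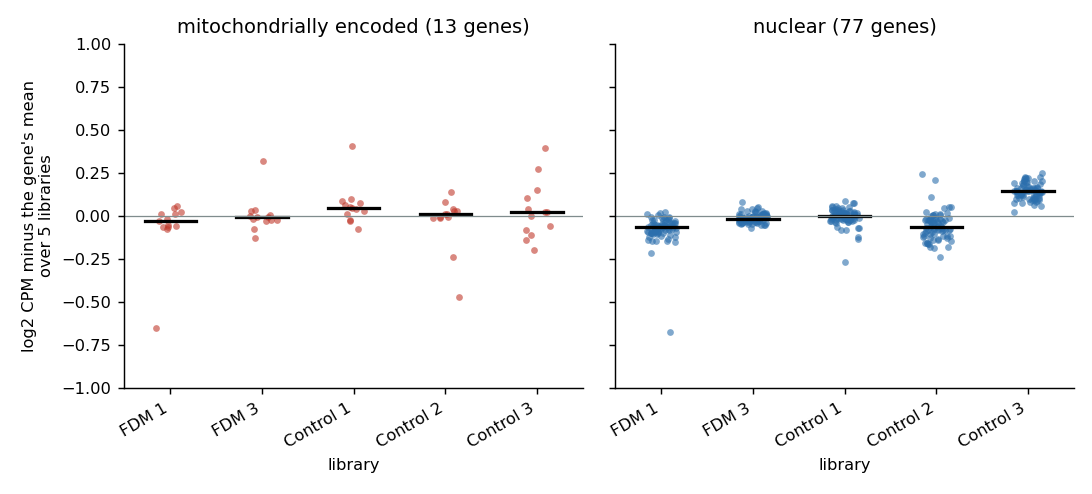
Each point is a gene, plotted as its log2 CPM in a library minus its mean over the 5 libraries, for the 13 mitochondrially encoded genes (left) and the 77 nuclear genes tested (right). Black bars are medians, at 0.142 for nuclear genes in Control 3; the outlying red points of FDM 1 and Control 2 are mt-Co2, and values of Cox8b beyond 1 in either direction fall outside the plotted range.

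Compared within each mouse, as numbered in the count table, most nuclear genes were lower in the goggled eye of both animals. In mouse 1, 72 of the 77 nuclear members were lower in FDM 1 than in Control 1, against 55.3% of all genes, with a median log2 ratio of -0.072. In mouse 3, all 77 were lower in FDM 3 than in Control 3, against 50.3% of all genes, with a median of -0.159. This count is not separate from Control 3 being the highest library for 74 of the 77. In both mice at once, 72 of 77 were lower (93.5%), against 30.3% of all genes, 46.2% (6 of 13) of the mitochondrially encoded and 81.9% of the ribosomal protein genes. The mitochondrially encoded medians were -0.079 in mouse 1 and -0.029 in mouse 3. On the sample labels, FDM 3 would be paired with Control 2 instead. The median nuclear deviation was -0.015 in FDM 3 and -0.068 in Control 2, so FDM 3 was not the lower eye on that pairing.

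With the mouse as a block in edgeR, 14 of the 77 nuclear members were called, all 14 as lower in FDM eyes, and 0 as higher. Of all genes this fit called 7.23%, with 3.67% as lower and 3.57% as higher. The nuclear median was -0.113, that of all genes -0.006 and that of the ribosomal protein genes -0.114. After adjustment 54 genes remained but 0 members, and the smallest adjusted p of a member was 0.406 in edgeR. When the pairs were taken from the sample labels instead, which set FDM 3 beside Control 2, 1 nuclear member was called. The nuclear median was then -0.004, and 37 of the 77 were above 0. This fit rests on 2 mice with both eyes and 1 residual degree of freedom among libraries.

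The genes called in the block fit, named after their values were seen, came from every complex. In complex I they were Ndufa2, Ndufa4, Ndufa13, Ndufb6, Ndufb11 and Ndufs6, all accessory subunits outside the catalytic core, of which Ndufa4 is now counted with complex IV. Ndufa13 had the lowest value of these, -0.21 (SE 0.07, unadjusted p = 0.0135 and adjusted p = 0.603 from edgeR). In complex III they were Uqcr11 and Uqcrh, the hinge protein that binds cytochrome c1, at -0.15 and -0.14. In complex IV they were Cox6b1, Cox7a2, Cox8a and Cox8b, and in complex V the small membrane subunits Atp5mj and Atp5me, at -0.15 each. Among the mitochondrially encoded genes, mt-Co2 (-0.57) and mt-Co3 (-0.23) were called as lower and mt-Nd5 (0.16) as higher. Summed with its copy, mt-Co2 was at -0.07 (SE 0.04, unadjusted p = 0.1 from edgeR) and no longer called, while mt-Co3 was at -0.14 and stayed so. In the same summed fit mt-Co1 (-0.10, unadjusted p = 0.0431 from edgeR) and mt-Nd3 (-0.12, unadjusted p = 0.0337 from edgeR) were called as lower as well, so that 4 mitochondrially encoded genes were called.

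**Figure D4:**
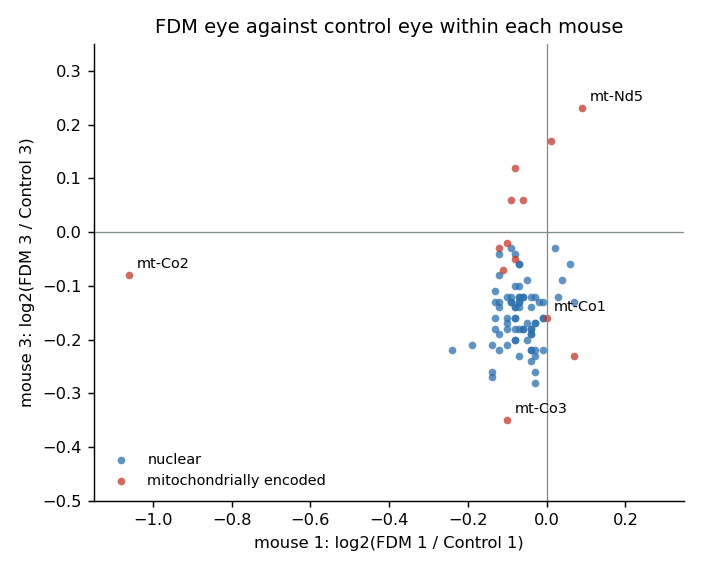
Log2 ratio of the FDM to the control eye in mouse 1 (horizontal) and mouse 3 (vertical) for each member tested, with nuclear genes in blue and mitochondrially encoded genes in red. Mice are numbered as in the count table. Nuclear points gather in the lower left, below 0 in both mice. Cox8b, at -0.41 and -2.83, falls below the plotted range.

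Among the nuclear genes, Ndufa2 had the smallest p in complex I, with 38.6 and 41.4 CPM in FDM against 44.2, 42 and 47.9 CPM. Its groups did not overlap (log2 fold change -0.16, SE 0.09, unadjusted p = 0.122 from edgeR). Ndufs7, an iron-sulfur subunit of the core, had the smallest p of the 3 members above 0, at 69.9 and 73.3 CPM against 73.6, 62.7 and 76.4 CPM (log2 fold change 0.02).

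In complex III, Uqcrc1, a core protein, had 162 and 156 CPM in FDM and 169, 140 and 171 CPM in control eyes, with a log2 fold change of -0.01. Uqcrh had 91.1 and 94.9 CPM against 97.8, 95.8 and 107 CPM, without overlap (-0.11, interval -0.31 to 0.10). In complex V, Atp5f1b had 1077 and 1090 CPM against 1138, 1030 and 1206 CPM (-0.05, interval -0.28 to 0.17). Atp5me, a subunit of the membrane part, had 58.4 and 64.1 CPM against 63.8, 65.7 and 72.5 CPM (-0.14, interval -0.36 to 0.09). In all, 12 of the 77 nuclear members had both FDM libraries below all controls (15.6%, against 6.67% of all genes). Of these, 6 belong to complex IV, namely Cox5a, Cox6c, Cox7c, Cox7a2, Cox6b2 and Cox8b.

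Cytochrome c oxidase carries several subunits in tissue-specific forms, and the retina mainly used the general ones. Cox4i1 had 182 and 193 CPM in FDM and 194, 182 and 209 CPM in control eyes, while Cox4i2, the form known from lung and for its response to low oxygen, reached 8.76% to 9.65% of its counts. The groups overlapped for both genes. Cox6a1 (88.8 and 93.7 CPM against 96.6, 82.9 and 103 CPM), Cox7a2 (49.1 and 52.3 against 53.2, 54.5 and 61.0 CPM) and Cox8a (133 and 142 against 142, 133 and 158 CPM) stood far above their heart and muscle partners. Cox6b1 was at -0.11 and its testis form Cox6b2, at 7.09% to 8.03% of its counts, at -0.21 on the log2 scale (unadjusted p = 0.136 from edgeR). Cox7b was at -0.07.

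Cox8b (chromosome 7 of GRCm38, 140898945 to 140900446), the heart and muscle form of subunit 8, was the member called. Counts were 22 and 19 in the form-deprived eyes against 27, 54 and 133 in the controls, or 0.507 and 0.395 CPM against 0.676, 0.947 and 2.80 CPM. The groups did not overlap, and the log2 fold change was -1.71 (SE 0.64, interval -3.21 to -0.21, unadjusted p = 0.0305 and adjusted p = 1 from edgeR). Without Control 3 it was -0.86 (unadjusted p = 0.0405 from edgeR), and without FDM 1 or FDM 3 it was -1.90 and -1.54 and no longer called. In limma on the normalized counts it was -1.42 and not called either.

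The muscle form Cox6a2 failed the count filter, with 8 and 5 counts in FDM and 4, 8 and 60 counts in control eyes, and so was also highest in Control 3. Cox7a1, the third heart and muscle form, differed less between libraries, with 71 and 85 counts in FDM and 71, 99 and 89 counts in control eyes (log2 fold change -0.08, interval -0.47 to 0.32). The skeletal muscle marker Myl1, a myosin light chain, reached 590 counts in Control 3 but 7 and 12 in the FDM eyes, 7 in Control 1 and 28 in Control 2. The myoglobin gene Mb had 21, 27, 23 and 29 counts but 673 in Control 3. Of the 11 muscle markers, 3 were at 0 in FDM 1, 1 in FDM 3, 2 in Control 1 and none (0) in Control 2 and Control 3. The part of muscle RNA in the counts of Cox8b and Cox6a2 was not tested.

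**Figure D5:**
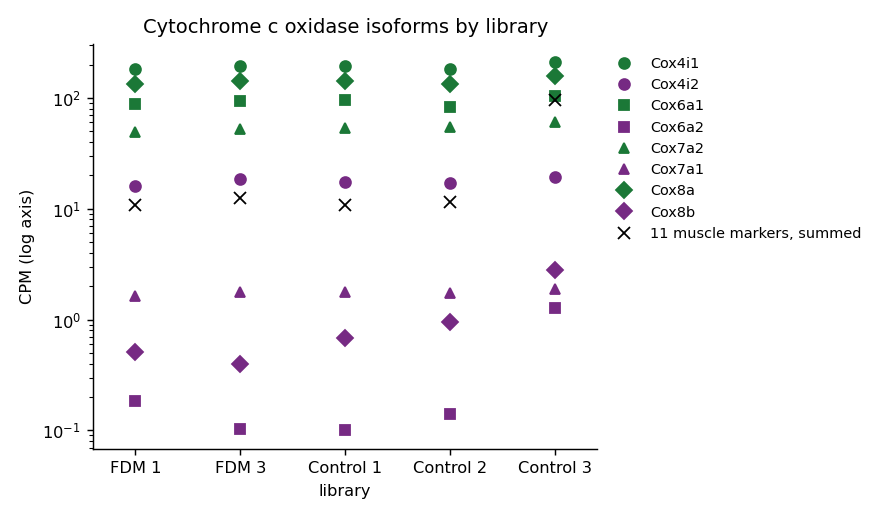
Levels in CPM on a log axis of the general (green) and tissue-specific (purple) forms of 4 cytochrome c oxidase subunits in each library, one marker shape a subunit, with the summed level of the 11 skeletal muscle markers as crosses. Cox8b, Cox6a2 and the muscle markers are highest in Control 3, at 2.80, 1.26 and 96.2 CPM, while Cox7a1 stays between 1.64 and 1.87 CPM.

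Besides Cox6a2, 3 more members failed the filter. Cox8c, a testis form, was at 0 in all 5 libraries. Cox7b2, another testis form, had 3 and 2 counts in FDM and 0, 8 and 3 counts in control eyes, and Cox6c2, annotated as a processed pseudogene, had 4 counts in FDM 3 and 0 in the others.

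The wider pathway was tested too, with 74 further genes. They covered complex II, cytochrome c, 2 subunits that the symbol rule missed, assembly factors, the handling of mitochondrial DNA and RNA and transcriptional regulators. Of the 74, 1 was called as lower, against 1.16% of all genes, and 0 as higher. Their median log2 fold change was -0.010, with 41 of the 74 below 0, against 55.6% of all genes. The gene called was Pet100, an assembly factor of complex IV, with 511 and 612 counts in FDM and 593, 800 and 728 counts in control eyes (log2 fold change -0.27, SE 0.10, unadjusted p = 0.0310 and adjusted p = 1 from edgeR). The block fit called 3 of these 74 genes as lower, against 3.67% of all genes, named after their values were seen: Pet100, Cox10 (-0.15), which makes heme O for complex IV, and the cytochrome c gene Cycs (-0.16).

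By list, the medians on the log2 scale were -0.040 for the 4 subunits of complex II, all of them encoded in the nucleus, and -0.034, -0.009, 0.002 and 0.003 for assembly factors of complexes I, III, IV and V. They were 0.018 for 16 genes of mitochondrial DNA and RNA handling and -0.008 for 8 transcriptional regulators of mitochondrial genes. None (0) of those 8 was called by edgeR with or without the block. Of the 2 subunits that the symbol rule missed, 0 were called and the median was 0.063.

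What the nuclear members share in sequence was described from their promoters. RefSeq promoters (GRCm38.p6, from 250 bases before to 50 bases after each gene start) were found for 65 of the 81. The letters CGCANGCG, the core of the site of NRF1, a known activator of respiratory genes, occurred on either strand in 22 of 65 (33.8%), against 8.42% of all 27025 promoters. The ETS site CCGGAAG, bound by GABP among others, occurred in 13 (20%, against 9.12%), and the YY1 site GCCATNTTG in 11 (16.9%, against 2.65%). A match of letters is no measure of binding, and its relation to the values across libraries was not tested. The stretch from 170 to 31 bases before the start of Cox6a1 is printed to show an example, with both matches to the NRF1 letters in capitals, read along the minus strand from chr5:115348989-115349128 (GRCm38.p6).
Cox6a1 promoter: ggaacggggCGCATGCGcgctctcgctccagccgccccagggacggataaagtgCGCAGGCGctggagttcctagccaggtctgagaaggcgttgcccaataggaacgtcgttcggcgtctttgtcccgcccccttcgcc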

How the data were processed

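RNA-Seq was made from poly-A RNA of whole retina with a kit that does not mark strand. The authors trimmed reads with Trimmomatic 0.39 and quantified them with Salmon 1.10.1, per the submitters' processing notes. The deposited raw table holds estimated counts per gene, whole numbers as deposited, and a second deposited table holds the same counts scaled by the authors (normalized counts, a signal with no fixed unit), with ratios of raw to normalized counts that differ between genes of one library. Here, genes with over 10 counts in at least 2 of 5 libraries were kept (17432 of 33636) and tested with edgeR 4.0.16 (TMM, quasi-likelihood, no covariate, R 4.3.3) at the unadjusted p of 0.05 named in the study's methods, with Benjamini-Hochberg adjustment over all genes. Fold changes are FDM against control on the log2 scale, and intervals are 95%. The p-values rest on 2 and 3 libraries, with the spread of each gene moderated towards that of genes of like abundance. Without a block, both eyes of a mouse were treated as independent. No libraries were duplicates (chi-square per degree of freedom 12.0 to 60.9).

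CPM used TMM library sizes, except shares and the plot of copies, and CPM per kb the median length of protein-coding transcripts in GENCODE M21 (GRCm38). Copies were genes with over 50% of their 31-base words in a member and at least 100 counts in a library. Complexes were assigned by symbol. Paired eyes followed the mouse numbers of the study's supplement; deviations of paired eyes from their group means correlated at 0.286 (mouse 1) and 0.146 (mouse 3) over 17321 genes, but at -0.474 and -0.152 over the members. Numbered by the sample labels, FDM 3 with Control 2 correlated at 0.175, so the correlations do not choose between the pairings. With 2 FDM libraries, the deviations of FDM 1 and FDM 3 are equal and opposite, so these correlations are not independent of each other.

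Genes named with values were the mitochondrially encoded ones, per complex the nuclear gene with the highest CPM and with the smallest p in each direction, members past the threshold, tissue isoforms of cytochrome c oxidase and members that failed the filter. The members and lists were chosen with earlier results of these data known. Alternatives were DESeq2 1.42.0, limma 3.58.1 (fitted to log2 deposited normalized values after adding 1 or 0.1), other scalings and filters, blocks by mouse, leaving out each library and, chosen after seeing the data, sums with copies and offsets from the deposited normalization. Mitochondrial ribosomal RNA genes were not used here. Some results under the naming rule are not reported here. The fit was tested on simulated data.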

Additional observations from a re-analysis of the deposited data

How the results depend on the processing

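Counts of members past the threshold depended mainly on the pairing. Of the mitochondrially encoded genes, 0 passed without a block, 3 with the block by mouse, 4 with that block and counts summed with copies, and 0 to 1 when a library was left out. Of the nuclear genes 1 passed, but 14 with the block by mouse, 20 with that block and summed copies, 0 in limma at either pseudocount, and 0 to 2 without a library. Over all genes the block by mouse raised the calls from 281 to 1261, with 54 after adjustment, and to 1274 and 56 with summed copies. Paired by the sample labels, the counts were 439 and 128. Other settings called 146 to 944 genes, DESeq2 172.

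The mitochondrial median of -0.064 became 0.002 in limma at either pseudocount, 0.001 with offsets from the deposited normalization, -0.046 with the block by label numbers, and -0.078 to -0.030 without a library. The nuclear median ran from -0.104 to 0.002 without a library. The share of counts in mitochondrially encoded genes, -0.177 percentage points in FDM, ran from -0.362 to 0.008 without a library and was -0.038 in the deposited normalized counts.

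Of 540 values for 30 named genes, 462 kept direction and side of the threshold, 4 lost the call, 24 gained it and 50 changed sign. With the block by label numbers they were 0.00 for Atp5f1b and Cox4i2, 0.03 for Cox6a1 and mt-Co3, 0.05 for Uqcrc1, -0.02 for mt-Nd4l, -0.01 for mt-Nd5 and -0.04 for mt-Nd6. With the block by mouse Ndufs7 was at -0.07, with or without summed copies. In limma at either pseudocount Ndufs7 was at -0.01, mt-Atp6 at 0.00, mt-Nd2 at 0.05, and mt-Nd3 and mt-Nd4 at 0.04. With the offsets these were -0.01, 0.00, 0.05, 0.03 and 0.04. With library totals only, Uqcrc1 and mt-Nd2 were at 0.00. Left out in turn, the libraries gave ranges of -0.10 to 0.01 (Atp5f1b), -0.10 to 0.00 (Cox4i1), -0.17 to 0.06 (Cox4i2), -0.12 to 0.03 (Cox6a1), -0.12 to 0.00 (Cox8a), -0.06 to 0.08 (Ndufs7), -0.09 to 0.05 (Uqcrc1), -0.82 to 0.15 (mt-Co2), -0.22 to 0.03 (mt-Co3), -0.04 to 0.04 (mt-Nd2), -0.15 to 0.02 (mt-Nd3), -0.04 to 0.01 (mt-Nd4), -0.01 to 0.10 (mt-Nd4l), 0.00 to 0.17 (mt-Nd5) and -0.04 to 0.06 (mt-Nd6). The cause was not tested. Library totals were 40599047 counts or more, and mean CPM was lowest for Cox8b and the 4 genes that failed the filter.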
